A study of Bubalus bubalis with 12 samples.

Results

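The T cell marker genes described here are 10 genes whose proteins sit on or just under the surface of T lymphocytes: CD3D, CD3E, CD3G, CD247, CD2, CD4, CD8A, CD5, CD6 and LCK. They were chosen by symbol and not by their values, though with earlier results of these data known. Each of the 10 matched 1 row of the deposited table of 34037 genes, 22972 of them with reads in some animal. The ruminal wall, the lining of the forestomach in which feed is fermented, was taken at slaughter from 12 Italian Mediterranean dairy buffaloes (Bubalus bubalis) about 8.2 years old. For 60 days, after 14 days of adaptation, 6 of them, the control group, ate a total mixed ration (TMR) and the other 6, the treated group, a TMR of which freshly cut ryegrass made about 30%. Each animal gave 1 RNA-seq library from a piece of frozen wall. Values are FPKM, that is fragments scaled by gene length and by all fragments counted in the library, and the libraries held between 10531541 and 12948372 counted fragments.

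T cells recognise peptides with a receptor whose short tails cannot signal. The CD3 chains and the zeta chain encoded by CD247 carry the signalling motifs, and the kinase LCK, held by the co-receptors CD4 or CD8, phosphorylates them. CD2 is an adhesion receptor, and CD5 and CD6 are related scavenger-receptor-like proteins that tune the signal. In stratified epithelia such as the ruminal one, T cells are known to lie within the basal layers and in the tissue underneath. Some of these genes are not restricted to T cells, since natural killer cells carry CD247, CD2 and LCK and some B cells carry CD5. In pieces of wall, fewer T cells and less RNA per T cell cannot be told apart.

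All 10 genes had reads in the ruminal wall, and for none of them did the difference between the diets exceed the spread between animals in a test. The filter on low values was about 42 scaled reads in at least 1 animal, and 8 members passed it. CD2, with at most 37 reads in an animal, and CD8A, with at most 12, did not pass, and the fitted values of CD2 come from a fit without the filter. With limma, 0 of the 8 members tested had a nominal p-value below 0.05, beside 1.24% of the 12642 genes tested, and 0 had an adjusted p-value below 0.05, beside 0.0% of all genes. With voom, run on reads recovered from these values, the nominal count was also 0 of 8. In the two-sided exact permutation test, which covers all 10 members, 0 had a p-value below 0.05. The groups overlapped for all 10, whereas 0.0554% of the genes tested did not overlap between the groups. Fitted log2 fold changes were above 0 for 3 of these 8 members and below 0 for 5, and their median was -0.05 beside 0.01 over all genes tested. The median absolute log2 fold change of the members was 0.10, and that of all genes tested was 0.09.

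**Figure D1:**
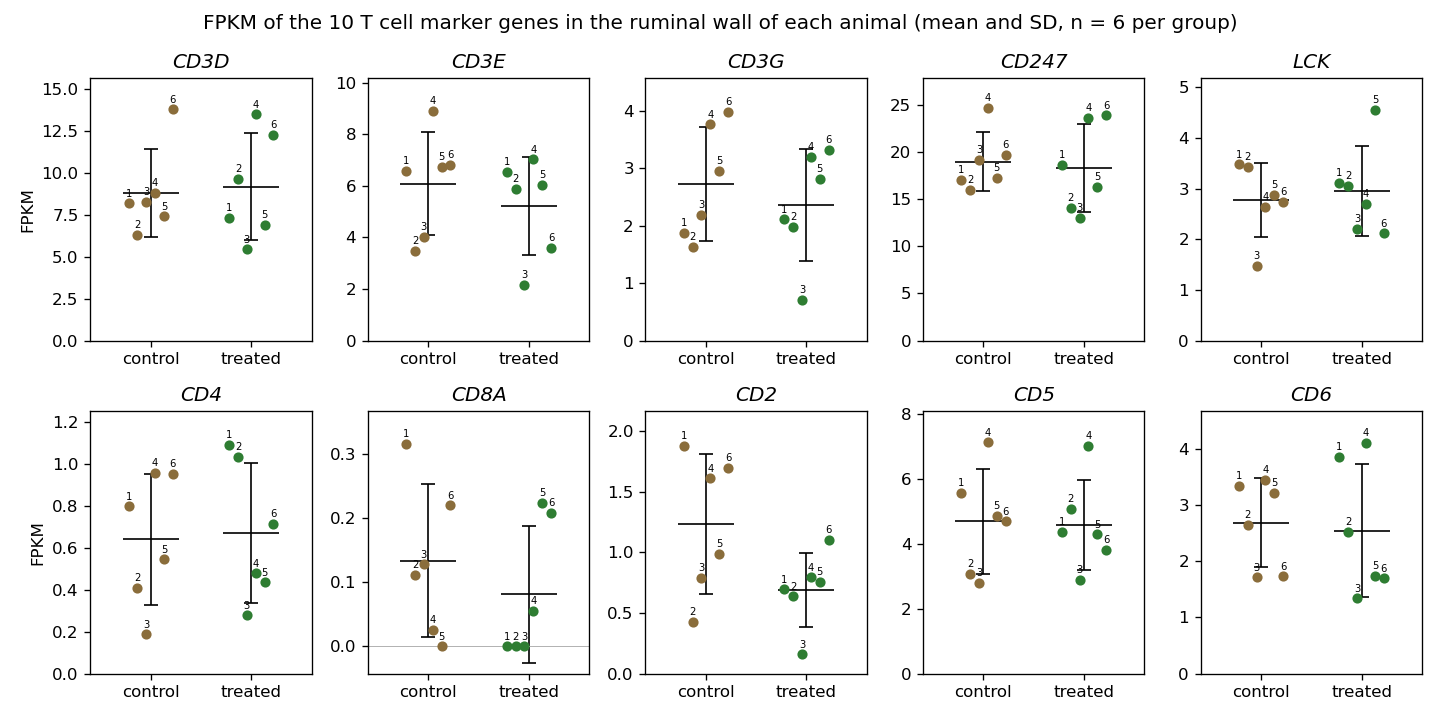
FPKM (y axis, starting at 0 except for CD8A, where the lower SD bar reaches below 0) of each T cell marker gene in the 6 control and 6 treated animals, with the animal number beside each point and the mean and SD as a bar. The groups overlap in every panel, and treated 3 is the lowest animal of all for CD3D, CD3E, CD3G, CD247, CD2 and CD6.

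CD3D (gene 102390133), the delta chain of CD3, ranged in the control group from 6.29 to 13.8 FPKM with a median of 8.23, and in the treated group from 5.44 to 13.5 FPKM with a median of 8.48. The highest animals of both groups, control 6, treated 4 and treated 6, stood at 12.3 FPKM or more, and the other animals at 9.65 FPKM or less. Mean CD3D was 8.80 ± 2.60 FPKM in control and 9.18 ± 3.19 FPKM in treated buffaloes (SD, n = 6 each). This is a log2 fold change of 0.03 with a 95% confidence interval from -0.48 to 0.54 (exact permutation p = 0.909).

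CD3E (gene 102390460), the epsilon chain that pairs with both other CD3 chains, ranged from 3.46 to 8.90 FPKM (median 6.65) among control animals and from 2.17 to 7.02 FPKM (median 5.97) among treated animals. Of the 6 treated animals, 5 lay below the control median. Mean CD3E was 6.08 ± 2.01 FPKM in control and 5.21 ± 1.90 FPKM in treated animals, and the log2 fold change was -0.26 (95% interval -0.92 to 0.40; exact permutation p = 0.457). Without treated 3 it was -0.03.

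CD3G (gene 102388922), the gamma chain, was lower per length than the other 2 CD3 chains. Its control values ran from 1.63 to 3.98 FPKM around a median of 2.57, and its treated values from 0.709 to 3.32 FPKM around a median of 2.46. The value of treated 3, 0.709 FPKM or 25 reads, was far under that of the next treated animal, 1.98 FPKM. The log2 fold change of CD3G was -0.29 (95% interval -1.07 to 0.49; exact permutation p = 0.532), and without treated 3 it was 0.03. In the NDDB_SH_1 assembly, which is not the one the reads were aligned to, CD3G, CD3D and CD3E are direct neighbours in that order.

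CD247 (gene 102411485), the zeta chain, had the highest level per length of the 10 genes and the smallest spread. It ranged from 16.0 to 24.7 FPKM (median 18.3) among control animals and from 13.1 to 23.9 FPKM (median 17.5) among treated animals. Mean CD247 was 19.0 ± 3.14 FPKM on the control diet and 18.3 ± 4.68 FPKM on the green diet (log2 fold change -0.08, 95% interval -0.44 to 0.28; exact permutation p = 0.649). The highest animal was 1.89 times the lowest for CD247, while the same ratio was 4.10 for CD3E and 5.61 for CD3G. The interval for CD247 excluded a treated level below 0.735 or above 1.22 times that of the control group, the narrowest bounds among the members.

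LCK (gene 102406784), the Src-family kinase that starts the signal, ranged from 1.47 to 3.48 FPKM (median 2.81) among control animals and from 2.12 to 4.55 FPKM (median 2.87) among treated animals. Control 3 was the lowest animal and treated 5 the highest, at 3.09 times that level. Mean LCK was 2.77 ± 0.729 FPKM and 2.95 ± 0.883 FPKM in the control and treated groups (log2 fold change 0.09, 95% interval -0.42 to 0.61; exact permutation p = 0.719).

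CD4 (gene 102413723), the co-receptor of helper T cells that binds MHC class II, was low, with 8 to 43 reads per animal. Control animals ranged from 0.188 to 0.959 FPKM with a median of 0.672, and treated animals from 0.278 to 1.09 FPKM with a median of 0.598. Within both groups the animals spread over nearly the whole range, and 5.82 times lay between control 3 and treated 1. The log2 fold change of CD4 was 0.10 with a 95% interval from -0.87 to 1.07 (exact permutation p = 0.825), so that these animals did not exclude a treated level between 0.546 and 2.11 times that of the control group.

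CD8A (gene 102409928), the alpha chain of the co-receptor of cytotoxic T cells that binds MHC class I, had 47 reads over the 12 libraries together, 29 of them from control and 18 from treated animals. It was at 0 reads in control 5, treated 1, treated 2 and treated 3, in which a count of 0 allows up to 3 reads, or 0.0810 to 0.0830 FPKM. The other animals reached up to 0.316 FPKM, the value of 12 reads in control 1. At 3 reads or fewer in 6 of 12 animals, no fold between the groups is given, and the exact permutation p was 0.338. The other chain of the CD8 co-receptor, CD8B, had at most 7 reads in an animal.

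CD2 (gene 102405508), the adhesion receptor for CD58, was the member with the smallest p-value. Control animals ranged from 0.429 to 1.88 FPKM with a median of 1.30, and treated animals from 0.159 to 1.10 FPKM with a median of 0.724. Each of the 6 treated animals lay below the control median, while control 2, at 0.429 FPKM, lay below 5 of the 6 treated animals. Mean CD2 was 1.23 ± 0.580 FPKM in control and 0.690 ± 0.307 FPKM in treated animals, from 140 and 79 reads. The log2 fold change was -0.85 (95% interval -1.91 to 0.20) with a nominal limma p of 0.104 and an exact permutation p of 0.123. Divided by CD3E or by PTPRC of the same animal, which was chosen after the values were seen, the difference had an exact permutation p of 0.104 and 0.0671. Leaving out 1 animal at a time moved the log2 difference between -1.12 and -0.48, and the exact permutation p was 0.0260 without control 2 and between 0.0801 and 0.247 without any other animal.

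CD5 (gene 102411511) and CD6 (gene 102409853), neighbouring genes in NDDB_SH_1, encode related receptors that dampen or adjust T cell receptor signals. CD5 ranged from 2.80 to 7.13 FPKM (median 4.78) among control animals and from 2.89 to 7.02 FPKM (median 4.34) among treated animals. Its means, 4.69 ± 1.61 FPKM and 4.58 ± 1.40 FPKM, were nearly equal (log2 fold change -0.01, 95% interval -0.56 to 0.53; exact permutation p = 0.961). CD6 ranged from 1.71 to 3.45 FPKM (median 2.94) among control animals and from 1.34 to 4.10 FPKM (median 2.13) among treated animals. The log2 fold change of CD6 was -0.15 (95% interval -0.81 to 0.52; exact permutation p = 0.658), and both the lowest and the highest CD6 value were in treated animals.

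**Figure D2:**
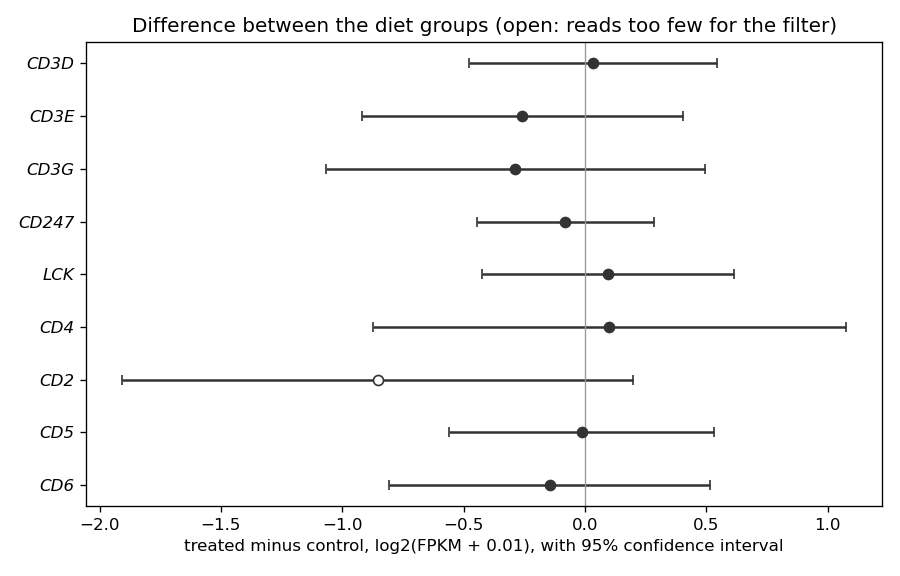
Treated minus control difference (x axis, log2(FPKM + 0.01)) of each T cell marker gene with its 95% confidence interval from limma. Closed points are the 8 members that passed the filter and the open point is CD2 in the fit without it, while CD8A is left out for its few reads. All 9 intervals include 0, and that of CD247, -0.44 to 0.28, is the narrowest.

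The spread between animals sets the width of these intervals. The median SD within groups was 0.52 on the log2 scale for the 8 members tested, 0.36 for all 12642 genes tested and 0.38 for the 8736 genes tested whose mean lay in the same range, 0.658 to 18.7 FPKM. The median SE of the log2 fold change was 0.28 for the members and 0.20 for all genes tested. Among the members CD247 was the most even, with an SD of 0.31, smaller than that of most genes, since 39.6% of the genes tested had a smaller one.

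Treated 3 was the lowest of the 12 animals for 6 members and among the lowest 3 for all 10, ties included. The 10 genes together had 48.4 reads per 1000000 counted fragments in treated 3, while the other treated animals had between 78.4 and 114. In the control group the same sum lay between 66.6 (control 2) and 108 (control 4). PTPRC, the gene of the pan-leukocyte protein CD45, was also lowest in treated 3, at 5.04 FPKM. Without treated 3 the median log2 fold change of the 8 members tested was 0.07 instead of -0.05, CD3G, CD247, CD5 and CD6 changed sign, with values from 0.01 to 0.11, and the count of members with a nominal p-value below 0.05 stayed at 0.

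The order of the levels per length was CD247, CD3D, CD3E, CD5, LCK, CD6, CD3G, CD2, CD4 and CD8A. Mean levels fell from 18.7 FPKM for CD247, above 85.6% of the 22972 genes with any reads, through 8.99 FPKM for CD3D and 5.65 FPKM for CD3E to 0.658 FPKM for CD4 and 0.107 FPKM for CD8A. Neighbours in this order were compared within animals with a two-sided exact sign-flip permutation test over the 12 animals, with Benjamini-Hochberg adjustment over the 9 pairs. CD247 exceeded CD3D in 12 of 12 animals, by 1.08 ± 0.31 on the log2 scale (SD, n = 12; exact permutation, adjusted p = 0.0022). CD3D exceeded CD3E in 11 of 12 animals (adjusted p = 0.0022, exact permutation), and CD3E exceeded CD5 in 10 of 12 animals (adjusted p = 0.0286, exact permutation). LCK, CD6 and CD3G could not be separated (exact permutation, adjusted p = 0.351 for LCK and CD6 and 0.750 for CD6 and CD3G), nor could CD2 and CD4 (adjusted p = 0.0854, exact permutation). CD4 exceeded CD8A in 12 of 12 animals (adjusted p = 0.0022, exact permutation). These comparisons rest on the gene lengths behind the FPKM, which were 1076 bases for CD247, 1381 for CD3E, 2401 for CD3D and 2934 for CD3G.

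The ratio of CD4 to CD8A was taken as a measure of the balance of the 2 co-receptors. With 0.01 FPKM added to both genes, it ran from 1.44 in control 3 to 110 in treated 1. Its geometric mean was 6.52 for control and 15.9 for treated animals, a log2 difference of 1.28 (exact permutation p = 0.335). Where CD8A had no reads, in 3 of the 6 treated animals and 1 control animal, the size of the ratio is set by the amount added, so that these ratios are no exact folds. The log2 difference ran from 0.72 without treated 1 to 1.90 without control 5, and with 0.1 FPKM added the log2 difference was 0.47 (exact permutation p = 0.459).

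CD3E relative to PTPRC, which sets the CD3 signal against that of all leukocytes, had a geometric mean of 0.570 for control and 0.523 for treated animals (log2 difference -0.12; exact permutation p = 0.444). The ratio stayed within a narrow range, from 0.420 in control 2 to 0.764 in control 4. CD3D, CD3G and CD247 relative to PTPRC also did not pass the test between the groups (exact permutation p = 0.485, 0.604 and 0.820). CD3D relative to CD3E was less even than CD3E relative to PTPRC, from 0.992 in control 4 to 3.42 in treated 6 (exact permutation p between the groups = 0.392).

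**Figure D3:**
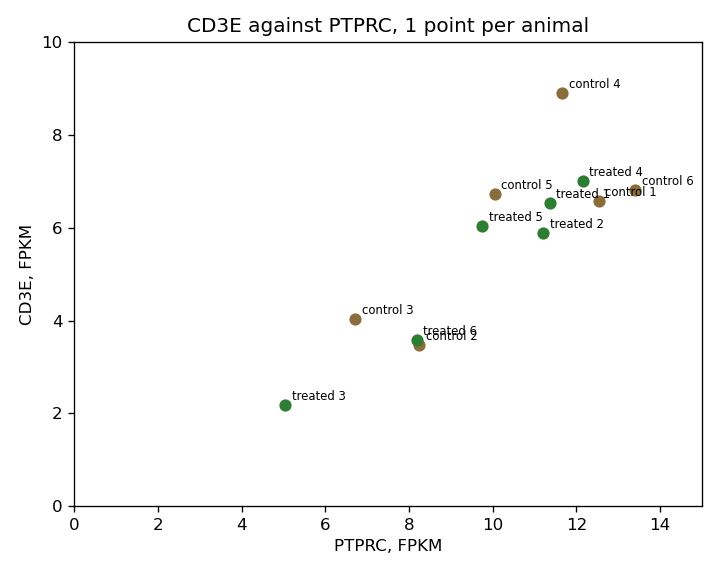
CD3E (y axis, FPKM) against PTPRC (x axis, FPKM) in the 12 animals, brown for control and green for treated. Treated 3, control 2, control 3 and treated 6 form the lower end and the other 8 animals the upper end, and neither diet group lies to one side.

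Over the animals, with the group means subtracted, 39 of the 45 pairs of members had a positive Pearson r of log2(FPKM + 0.01), with a median of 0.45. After Benjamini-Hochberg adjustment over the 45 pairs, 2 passed the permutation test. CD3E and CD5 had r = 0.88 (permutation adjusted p = 0.011; rho = 0.76), and CD3G and CD247 had r = 0.77 (permutation adjusted p = 0.046; rho = 0.86). Without the 2 animals farthest from the median of the first gene, r was 0.85 and 0.67. Without treated 3 r was 0.88 for CD3E and CD5 and 0.70 for CD3G and CD247, with permutation adjusted p of 0.0742 and 0.289. No pair passed without treated 3, control 2 or control 3, which left 0 of 45 in each case. The median r over the pairs was 0.27 without treated 3, and 0.43 to 0.51 without any other animal.

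CD8A and LCK stood apart from the rest, with a median r to the other members of 0.11 and 0.20. LCK had a negative r with CD3D (-0.21) and with CD247 (-0.26), although it acts on the CD3 chains, and CD8A had its lowest r with CD6 (-0.31). None of these negative values passed the test, and the CD8A values rest on 0 to 12 reads. Once each member was divided by the PTPRC of the same animal, the median r over the pairs was 0.02, and 0 of 45 pairs passed.

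With PTPRC itself, 4 of the 10 members passed the permutation test after adjustment over the 10 relations. CD3E had r = 0.91 (permutation adjusted p = 0.0065; rho = 0.69), CD5 had r = 0.84 (permutation adjusted p = 0.0065; rho = 0.75), CD4 had r = 0.80 (permutation adjusted p = 0.0071; rho = 0.66) and CD2 had r = 0.79 (permutation adjusted p = 0.037; rho = 0.64). By rho, 0 of the 10 passed after adjustment, with permutation adjusted p of 0.084 for CD3E and CD5 and 0.091 for CD4 and CD2. Without the 2 animals farthest from the median, r was 0.83 for CD3E, 0.85 for CD5, 0.53 for CD4 and 0.53 for CD2. CD247, the highest of the members, followed PTPRC least after CD8A, with r = 0.39.

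**Figure D4:**
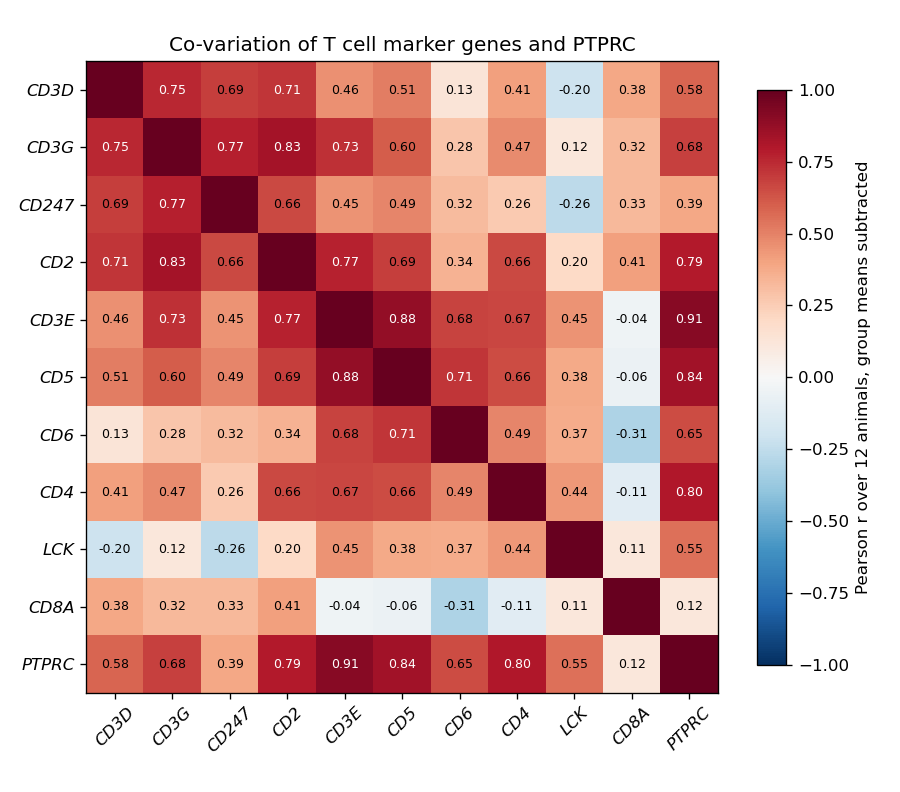
Pearson r over the 12 animals (colour and number, from -1 to 1) between the log2(FPKM + 0.01) of each pair of T cell marker genes and PTPRC, with the group means subtracted. CD3D, CD3G, CD247 and CD2 have r from 0.66 to 0.83 with each other, and CD3E, CD5 and CD6 from 0.68 to 0.88, in an order of the genes that was set after the values were seen. Across these sets r runs from 0.13 (CD3D and CD6) to 0.77 (CD2 and CD3E), so the sets are not separate, and CD2 has a higher r with CD3E and CD5 (0.69) than with CD247 (0.66).

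The 10 genes outside the members whose pattern over the 12 animals was most like the mean standardised level of the 8 members tested were ARHGAP15 (r = 0.95), PTPRC (0.94), CORO1A (0.93), LAPTM5 (0.91), MAB21L3 (0.91), ITGAE (0.91), KCNA3 (0.89), LOC102398269 (0.89), TBC1D9 (0.88) and TCP1 (0.88). These r are over deviations from the group means and were the highest among all genes tested, so they are given without a test. With the 2 animals farthest from the median level of the members left out, r ran from 0.61 (TBC1D9) to 0.86 (ITGAE) and was 0.77 for PTPRC. CORO1A and LAPTM5 encode an actin-binding and a lysosomal protein of leukocytes, ITGAE the integrin chain CD103 of lymphocytes within epithelia, and KCNA3 a potassium channel of T cells. Of the 10, TCP1, a chaperonin subunit, had the highest level, 75.8 FPKM.

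The genes that act with the members inside the T cell were taken from a list of T cell receptor signalling genes, of which 23 of 25 matched a row and 17 were tested in the same fit. In this list 0 genes had a nominal p-value below 0.05, and the median log2 fold change was -0.11, 6 genes being above 0 and 11 below. Its highest genes were PLCG1, a phospholipase that many cell types use (15.4 FPKM over the 12 animals), CSK, the kinase that restrains LCK (9.17 FPKM), the co-stimulatory receptor ICOS (3.77 FPKM) and the kinase FYN (2.32 FPKM). Their log2 fold changes lay between -0.20 (FYN) and 0.11 (PLCG1).

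Of 14 T cell transcription factors 10 were tested, and 1, TCF7, had a nominal p-value below 0.05, beside 1.24% of all genes tested. The paper also reported TCF7 as raised, from the same animals with edgeR, so this call is no independent result. TCF7, the factor of naive and memory T cells also known as TCF1, was 0.787 ± 0.118 FPKM in control and 1.34 ± 0.374 FPKM in treated buffaloes (SD, n = 6 each). Its log2 fold change was 0.72 with an SE of 0.23, its nominal limma p was 0.00736 and its exact permutation p 0.00649, but after adjustment over all genes by limma the p-value was 1.00. With the smooth muscle score as a covariate TCF7 had a log2 fold change of 0.50 and its nominal limma p was 0.0653. LEF1, another factor of the list, was reported as lowered in the paper with edgeR. Here LEF1 had a log2 fold change of -1.42 and did not pass (nominal limma p = 0.133, exact permutation p = 0.160). The abundant factors of the list, ZBTB7B (42.2 FPKM), BCL11B (9.68 FPKM), ETS1 (5.24 FPKM) and BCL6 (4.40 FPKM), had log2 fold changes between -0.02 and 0.08. ZBTB7B was thus above CD247, and BCL11B above CD3D, in mean level per length over the pieces of wall. Which cells gave these reads was not tested. Over the animals, with group means subtracted, this list followed the members with r = 0.42 only. The lineage factors FOXP3, TBX21 and EOMES had at most 2, 3 and 2 reads in an animal.

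Receptors that place or sustain T cells were of the same order of level as CD3E, CD5 and LCK. Among the homing and residency receptors 10 of 16 were tested, 0 with a nominal p-value below 0.05, with a median log2 fold change of -0.06. The chemokine receptors CXCR4 (4.05 FPKM) and CXCR6 (3.52 FPKM) and the integrin chains ITGB7 (3.81 FPKM) and ITGAE (2.92 FPKM), which pair to hold lymphocytes in epithelium, led this list, while CXCR3 and CCR9 had at most 2 and 1 reads in an animal. Cytokine receptors, costimulatory and checkpoint genes gave 0 of 12 tested, with a median log2 fold change of -0.08, and were led by IL7R (5.62 FPKM), IL2RG (3.06 FPKM), IL2RA (2.54 FPKM) and TNFRSF18 (1.70 FPKM). Of 7 gamma-delta T cell genes 2 matched a row by symbol, SOX13 and ZBTB16, and neither passed. The cytotoxic and natural killer list had 15 of 23 genes with a row and 2 tested, CCL5 and CRTAM, which did not pass, and GZMA and GZMK had at most 6 and 5 reads in an animal. NKG7 (1.50 FPKM) and CST7 (0.869 FPKM) had too few reads for the filter.

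Leukocyte and tissue lists were set beside the members for the other cells that a piece of wall holds. In the pan-leukocyte list 0 of 10 genes tested passed, with a median log2 fold change of -0.07, and PTPRC was 10.4 ± 2.59 FPKM in control and 9.61 ± 2.64 FPKM in treated animals. Counts were also 0 for B and plasma cell markers (0 of 2 tested), macrophage and monocyte markers (0 of 7), dendritic cell markers (0 of 2), lymphoid tissue genes (0 of 1), epithelial markers (0 of 9) and endothelial markers (0 of 7), and no red blood cell marker had enough reads to be tested. In the B and plasma cell list JCHAIN, the chain that joins secreted antibodies, was at 4.06 FPKM and the kinase BLK at 2.47 FPKM, while MS4A1 and PAX5, which define B cells, had at most 2 and 1 reads in an animal. Summed over their lists, the 10 T cell marker genes ranged from 28.3 to 62.5 FPKM over the animals and the 9 epithelial markers with a row from 3550 to 6293 FPKM.

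The smooth muscle and fibroblast lists leaned to 1 side. Over all 12642 genes tested, 6480 had a fitted log2 fold change above 0. The genes of a list come from the same libraries, so a shared sign is not a count of separate results. In the smooth muscle list SYNM (-0.14) and SMTN (-0.03) lay near 0. For all 7 smooth muscle markers tested the fitted log2 fold change was below 0, the median log2 fold change was -0.72, and 1 of them, DES, the muscle filament desmin, had a nominal limma p below 0.05 (log2 fold change -1.04, nominal limma p = 0.0271, exact permutation p = 0.0519). Leaving out control 2, control 3, control 6, treated 1, treated 2 or treated 5 ended that nominal call (limma p from 0.0512 to 0.0651). Of all genes tested, 1.24% had such a nominal call. The paper also reported DES as lowered, from the same animals with edgeR, so this call is no independent result. The summed level of the 10 smooth muscle markers ranged from 29.7 to 51.6 FPKM among control and from 16.9 to 42.3 FPKM among treated animals. That of all 8 fibroblast markers was below 0 as well, with a median of -0.66, and 0 of them passed. With the smooth muscle score of each animal as a covariate in limma, 0 of 8 T cell marker genes had a nominal p-value below 0.05, and CD4 had a log2 fold change of -0.36 instead of 0.10.

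**Figure D5:**
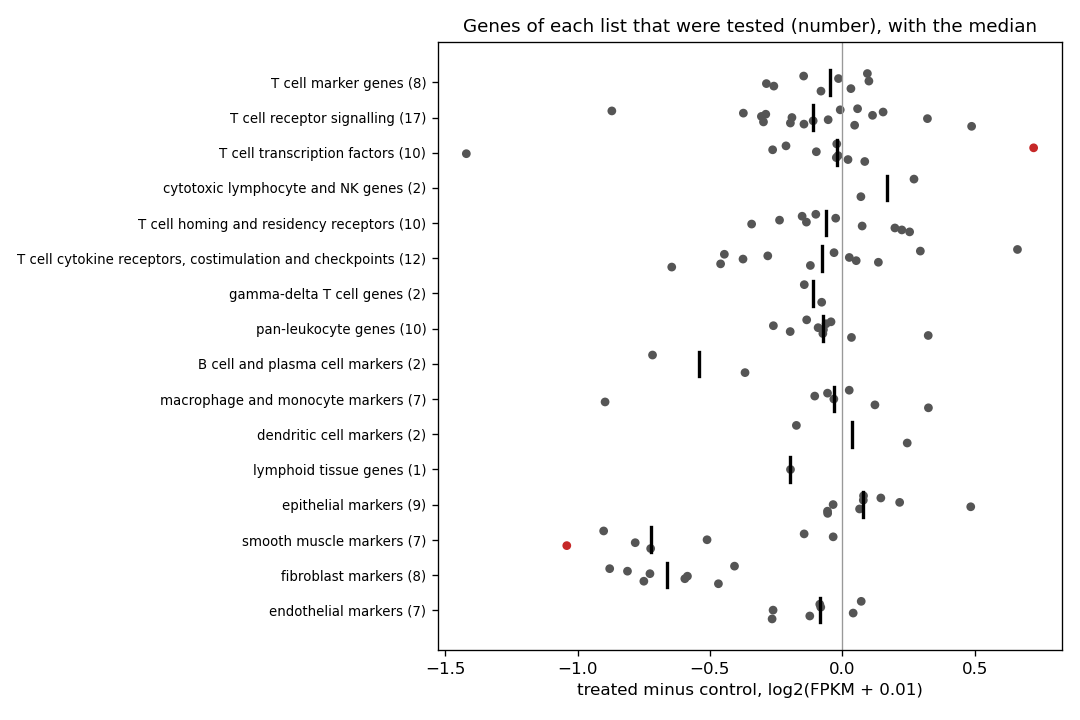
Treated minus control difference (x axis, log2(FPKM + 0.01)) of each gene tested in each list (y axis, with the number of genes tested), with the median of the list as a vertical bar and those past a nominal limma p of 0.05 in red. The medians of the T cell lists lie near 0, but single genes lie further out, and LEF1 (-1.42) of the T cell transcription factors is the lowest point. All smooth muscle and fibroblast genes lie below 0, and the 2 red genes are TCF7 (0.72) and DES (-1.04).

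The lists' mean standardised levels were also set against that of the members over the 12 animals, with the group means subtracted, as a description. The pan-leukocyte genes followed the members most closely (r = 0.96, rho = 0.96), then the cytokine receptors and checkpoints (r = 0.94, rho = 0.87), the homing receptors (r = 0.94, rho = 0.90) and the T cell receptor signalling genes (r = 0.91, rho = 0.85). The cytotoxic list and the B and plasma cell list had r = 0.80 each, the macrophage list 0.51 and the T cell transcription factors 0.42. The cytotoxic, B and plasma cell, dendritic and gamma-delta levels rest on 2 tested genes each, and the lymphoid tissue level on 1. For the gamma-delta list these are SOX13 and ZBTB16, and its receptor chain genes had no row by symbol. Near 0 or below were the epithelial markers (r = 0.07), fibroblast markers (0.02), lymphoid tissue genes (0.0035), smooth muscle markers (-0.12), endothelial markers (-0.14), dendritic cell markers (-0.17) and gamma-delta T cell genes (-0.45). All of these values share the same 12 libraries and include treated 3, and without the 2 animals farthest from the median r was 0.97 for the pan-leukocyte genes, 0.96 for the homing receptors, 0.92 for the cytokine receptors and checkpoints, 0.74 for the signalling genes and 0.17 for the transcription factors. In the same way it was 0.65 for the cytotoxic list, 0.81 for the B and plasma cell list and 0.62 for the macrophage list. The low values were less stable, and r without these 2 animals was 0.55 for lymphoid tissue genes, 0.54 for dendritic cell markers, 0.34 for fibroblast markers, 0.16 for smooth muscle markers, 0.13 for endothelial markers, -0.33 for gamma-delta T cell genes and -0.41 for epithelial markers.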

How the data were processed

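Stranded libraries of total RNA were read from both ends over 150 bp. The authors trimmed the reads with Trimmomatic 0.39 (base quality 25, minimum length 35 bp), aligned them to UOA_WB_1 with STAR 2.5.2b and summarised them by gene, strand-aware, with featureCounts 2.0.0 (mapping quality 30 or more), per their methods and the submitters' processing notes. The authors deposited FPKM, which correct for gene length and library size, and what made the FPKM from the counts is not given in the sources used here. Of the table's columns, 12 matched the animals by label and 4 others were not used.

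Each FPKM proved to be a whole number of steps of 1 read, from which reads, gene lengths and counted fragments were recovered (100% of 219695 values above 0 within a relative tolerance of 1e-09). The counted fragments, 10531541 to 12948372 per animal, limit the precision, and limits set by reads cover counting error only. Genes reaching about 42 TMM-scaled reads in some animal entered limma 3.58.1 in R 4.3.3 (lmFit, eBayes with trend) on log2(FPKM + 0.01). P-values were adjusted by Benjamini-Hochberg across the 12642 genes, and fold changes are on that scale. For genes with few or no reads in some animals, the size of the fold change depends on the amount added. Single values were tested with a two-sided exact permutation test over 924 assignments, whose smallest p is 0.00216. Permutation tests of r used 100000 permutations within groups (20000 where 1 animal was left out). Each animal gave 1 sample and is named by the number in its description label. Python 3.11.15, numpy 2.4.6, pandas 2.3.3, scipy 1.17.1 and matplotlib 3.10.9 were used, and the limma fit was tested on simulated data.

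The CD4 to CD8A ratio was planned without a pseudocount, which could not be had with CD8A at 0 in 4 animals, so that 0.01 was added to both. The members and lists were chosen with earlier results of these data known. Named genes were the 10 members, list genes with a nominal p-value below 0.05, up to 4 others per list of highest mean FPKM, and the 10 genes most like the members over animals. CD8B, LEF1, FOXP3, TBX21, EOMES, CXCR3, CCR9, GZMA, GZMK, MS4A1 and PAX5 were named after their values were seen. Gene names that had no row by that symbol, among them T cell receptor constant chains, were not analysed here. Alternatives were other pseudocounts, filters, scalings and variance models, voom, covariates, a replicate block and each animal left out. Protein and promoter sequences were not used here.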

Additional observations from a re-analysis of the deposited data

Results flagged for a closer look

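CD3D in control 6, at 13.8 FPKM, stood apart from the rest of its group, which ran from 6.29 to 8.83 FPKM. The gap to the next animal was 0.663 of the range of the group, above Dixon's critical value for 6 animals. Of 22 sets of 6 values checked in this way it was the only one, and chance alone marks about 1 in 20. Control 6 was also the highest animal for CD3G, at 3.98 FPKM, and for PTPRC, at 13.4 FPKM, but not for CD3E, at 6.81 FPKM.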

How the results depend on the processing

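The count of T cell marker genes with a nominal p-value below 0.05 was 0 under each of the 23 alternatives run, and of 186 limma values of single members under these alternatives 165 kept their sign, 21 changed it and 0 passed. With the epithelial score as covariate CD4 had a log2 fold change of -0.024 and LCK of -0.032, with the smooth muscle score CD4 had -0.36, and in the exact rank-sum test the treated minus control difference in mean rank of CD3D was -0.33. Leaving out 1 animal, the log2 fold change ran from -0.093 to 0.17 for CD3D, from -0.41 to -0.028 for CD3E, from -0.42 to 0.025 for CD3G, from -0.17 to 0.0084 for CD247, from -0.21 to 0.32 for CD4, from -0.15 to 0.12 for CD5, from -0.31 to 0.012 for CD6 and from -0.077 to 0.18 for LCK. Over all genes the nominal count was 157, and it was 562 of 22972 without the filter, 301 of 16450 with at least 0.1 FPKM in 6 animals, 330 with the epithelial score, 322 with the replicate block and 142 to 325 without 1 animal, the highest without treated 6, and more genes were tested in the first 2 of these. The other lists held 2 such genes of 106 tested, beside 157 of 12642 over all genes. They held 8 of 170 without the filter, beside 562 of 22972, and 4 of 145 with at least 0.1 FPKM in 6 animals, beside 301 of 16450. With the smooth muscle score the count was 0, and TCF7 and DES lost their calls. DES is itself part of that score, so its loss there is no separate result. With the epithelial score the count was 1. Without 1 animal it was 1 to 6 (1 without control 6, treated 1 or treated 2, 4 without control 2 and 6 without treated 4). Of 45 pairs of members 2 passed, 5 over raw values, 1 by Spearman, 1 with a pseudocount of 1, 0 after division by PTPRC and 0 to 6 without 1 animal, with 0 without control 2, control 3 or treated 3, 1 without control 4, treated 1, treated 2 or treated 6, 4 without control 6 and 6 without control 1. Except where a change follows from the number of genes or animals, the cause was not tested. The CD4 to CD8A and CD3E to PTPRC ratios kept their sign and did not pass in any alternative, with log2 differences without 1 animal from 0.72 to 1.90 and from -0.21 to -0.040.

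The description labels number the animals of both groups from 1 to 6, the titles number them differently, and no label ties same-numbered animals together. Same-numbered animals correlated in their deviations between -0.01 and 0.42, and 8 of 12 lay closest to their own number, which is a hint from the data and not from the design. With the replicate block 0 of 8 members and 2 list genes passed the nominal threshold, the exact sign-flip p of the block was 0.531 for CD4 to CD8A and 0.344 for CD3E to PTPRC, and the median r over the pairs of members was 0.14. The planned quasi-likelihood count test was not run, because the deposited unit is FPKM. The 0.1 FPKM pseudocount for the ratio, the extra CD2 and CD8A settings, the pairs of members without 1 animal and their block were chosen after seeing the data. At this depth CD2, CD4 and CD8A, with at most 43 reads per animal, limit what could be detected.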

Other observations

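In single animals the members did not all rank alike, although 39 of the 45 pairs of members had a positive r. In treated 6, CD247 was 23.9 FPKM, CD3D 12.3 FPKM and CD3G 3.32 FPKM, the highest or second highest values of the treated group, while CD3E was 3.58 FPKM, CD6 1.69 FPKM and LCK 2.12 FPKM, the lowest or second lowest. In treated 1, CD4 (1.09 FPKM) and CD6 (3.86 FPKM) were first or second in the group and CD3D (7.31 FPKM) and CD3G (2.11 FPKM) among the lower 3, while CD247 (18.6 FPKM) was among the upper 3. CD3D, CD3G and CD247 had r from 0.69 to 0.77 with each other, CD3E, CD5 and CD6 from 0.68 to 0.88, and the 9 pairs across these sets from 0.13 (CD3D and CD6) to 0.73 (CD3G and CD3E). The sets were drawn after the values were seen, and the difference between them was not tested. CD2 was left out of both, and it had r = 0.66 with CD247, 0.77 with CD3E and 0.69 with CD5.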
